A study of Mus musculus with 2 samples.

Results

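The scavenger receptors of macrophages and their close relatives were read here as 10 genes, Cd36, Msr1, Marco, Cd163, Mrc1, Stab1, Scarb1, Cd5l, Timd4 and Cd68, out of 18193 genes that the array reads through a probe set naming no other gene. They were chosen by gene symbol, and all 18 probe sets that carry one of these symbols alone in the platform annotation were used. Expression came from 2 Affymetrix arrays, 1 of macrophages and 1 of osteoclasts. Marrow of C57/Black6 mice aged 8 weeks was grown with M-CSF (macrophage colony-stimulating factor) for 3 days, and the adherent cells, taken as progenitors of both cell types, then received either M-CSF only or M-CSF together with RANKL, the cytokine that drives osteoclast formation. The labels place lysis at 6 days, and both groups share the strain, the age and M-CSF. They do not say how many animals were used, whether they were pooled, or whether both cultures came from the same animals.

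Scavenger receptors are surface or endosomal proteins that bind modified lipoproteins, microbes, dying cells and other polyanionic debris and carry them to the lysosome. Macrophages use them to clear tissue waste and to take up cholesterol, and members of several unrelated protein families share this work. Class A receptors (Msr1, Marco) are trimers with a collagenous stalk, class B receptors (Cd36, Scarb1) are double-spanning membrane proteins that bind lipids, and Mrc1, Stab1 and Cd163 are large endocytic receptors. Osteoclasts arise by fusion of cells of the same lineage and turn from clearance to the digestion of bone.

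Signals ran lower across the whole osteoclast array. Over 23708 probe sets measured in both arrays the median of osteoclasts minus macrophages was -0.43 on the log2 scale, 1.35-fold lower. This is called the shift, and each difference is relative to it unless called deposited. A signal was counted as measured above a floor, the 40th percentile of the probe sets of its array, at 17.0 in macrophages and 14.4 in osteoclasts. Each gene was read from its brightest probe set, and the others are given beside it. Neither group has a replicate, so no difference could be tested. The only spread in the data is that between probe sets of one gene, which holds no variation between cultures or animals. Its SD was 0.49 (log2), from 5435 genes with 14641 probe sets. In such bulk RNA, fewer cells of a type and less RNA per cell cannot be told apart.

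The cultures matched their labels by marker genes. All 12 osteoclast markers were at least 2-fold higher in the osteoclast array, among them the resorption genes Acp5 (104 against 8167) and Ctsk (134 against 9202). Of 8 macrophage markers, 4 were at least 2-fold lower there, including Adgre1, which encodes F4/80 (5919 against 1107), while Csf1r, the M-CSF receptor, lay near the shift (9899 against 6005, -0.29). Granulocyte markers were mostly higher in the osteoclast array, with summed signals of 3674 and 6369. At least 2-fold higher were 8 of 10 relative to the shift and 5 of 10 as deposited. Of the 8 measured in both arrays, 6 were at least 2-fold higher, and 3 as deposited. Over all measured genes, 7.11% were at least 2-fold higher and 6.99% lower, and 3.0% were higher as deposited. The part of granulocytes in the results was not tested. Xist, the RNA of the silenced X chromosome, gave 1872 and 22.1, and the Y-linked Eif2s3y, Uty and Kdm5d gave 0.571, 14.7 and 6.14 in macrophages, below the floor, against 321, 72.7 and 63.5 in osteoclasts. By these values the sex of the animals differed between the arrays, which the labels do not state. Sex, other differences between the animals and the RANKL treatment therefore cannot be told apart in any value given here. As a sign of RNA integrity, the 3' control signal divided by the 5' one for Gapdh was 0.748 (macrophages) and 0.862 (osteoclasts). For beta-actin it was 1.23 and 1.21.

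Of the 10 genes, 8 were measured in both arrays. Among these, 5 were at least 2-fold lower in osteoclasts (Cd5l, Cd36, Stab1, Mrc1 and Marco), 3 lay within 2-fold of the shift (Scarb1, Msr1 and Cd68) and 0 were 2-fold higher. Cd5l and Cd36, 2 of the 8, were at least 4-fold lower, and 7 of the 8 lay below the shift. Over all 13647 genes measured in at least 1 array, 6.99% were at least 2-fold lower and 7.11% at least 2-fold higher, 0.923% were at least 4-fold lower, 49.7% lay below the shift, and the median was 0.00. Cd163 was above the floor in macrophages alone, and Timd4 in neither array. As deposited, 7 of the 8 genes measured in both arrays were at least 2-fold lower, all but Cd68. The share was 17.5% over all genes measured in at least 1 array. Of the 11469 genes measured in both arrays, 806 were at least 2-fold lower and 717 higher, and 2033 were lower as deposited. The median of the 8 scavenger receptor genes measured in both arrays was -1.46, against -0.017 for all genes measured in both.

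To show the regulatory sequence of genes that did and did not differ, the 250 bases before the annotated start are printed for Cd5l, the gene with the largest difference, for Cd36 and Mrc1, 2 abundant surface receptors that were lower, and for Cd68, which lay at the shift. They come from RefSeq on build GRCm38.p6, in which 8 of the 10 genes had an entry. Msr1 and Scarb1 had none in the table used. Capitals mark matches, on either strand, to the motifs searched, which were GAGGAA (the core bound by PU.1), TGANTCA (AP-1), TGCTGAC (bound by Maf proteins), TTNNGNAA (C/EBP), AGGTCA (the hexamer of nuclear receptors) and CACGTG (the E-box of MITF and TFE factors). Some C/EBP matches overlap each other by all but 1 base. The Cd5l sequence is chr3:87357631-87357880 (plus strand), Cd36 is chr5:17835897-17836146 (minus strand), Mrc1 is chr2:14229164-14229413 (plus strand) and Cd68 is chr11:69666171-69666420 (minus strand).
Cd5l: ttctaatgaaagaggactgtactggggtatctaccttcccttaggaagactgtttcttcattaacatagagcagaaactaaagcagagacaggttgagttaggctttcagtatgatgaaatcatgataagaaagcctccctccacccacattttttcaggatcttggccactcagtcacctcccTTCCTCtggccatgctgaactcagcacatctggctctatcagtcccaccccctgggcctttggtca
Cd36: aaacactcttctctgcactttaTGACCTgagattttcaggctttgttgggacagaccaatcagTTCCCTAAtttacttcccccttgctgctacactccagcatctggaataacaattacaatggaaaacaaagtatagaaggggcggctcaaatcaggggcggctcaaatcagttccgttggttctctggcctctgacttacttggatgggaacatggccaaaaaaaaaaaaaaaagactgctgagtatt
Mrc1: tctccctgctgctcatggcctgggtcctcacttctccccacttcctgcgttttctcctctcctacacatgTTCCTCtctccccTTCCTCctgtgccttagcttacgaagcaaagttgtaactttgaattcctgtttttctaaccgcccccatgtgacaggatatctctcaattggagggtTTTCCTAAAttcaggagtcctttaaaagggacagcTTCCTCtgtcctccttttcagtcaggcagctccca
Cd68: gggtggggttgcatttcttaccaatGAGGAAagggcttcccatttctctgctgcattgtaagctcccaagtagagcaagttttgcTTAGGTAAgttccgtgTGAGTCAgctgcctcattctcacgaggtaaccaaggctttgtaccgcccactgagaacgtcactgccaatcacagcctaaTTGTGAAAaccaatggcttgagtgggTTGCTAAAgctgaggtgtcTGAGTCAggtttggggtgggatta

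Matches were found before genes lower in osteoclasts and also before Cd68, which lay at the shift. The PU.1 core, bound by the master factor of myeloid cells, was found before 5 of the 8 genes, Cd5l, Cd68, Marco, Mrc1 and Stab1, and before 23.3% of the 32851 starts in the table. Mrc1 held 3 copies, the nearest 35 to 30 bases before the start, and Cd5l held 1 at 66 to 61 bases. The AP-1 motif, bound by Fos and Jun proteins, was found before Cd68 only, in 2 copies, and before 6.75% of all starts. The nuclear receptor hexamer was found before Cd36 and Timd4 and before 14.0% of all starts, the C/EBP motif before 5 of the 8 and 36.8% of all, and the Maf motif before Timd4 and 3.81% of all. The E-box was found before 0 of the 8 and before 6.02% of all. A match is a description of letters and says nothing about binding in these cells.

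**Figure D1:**
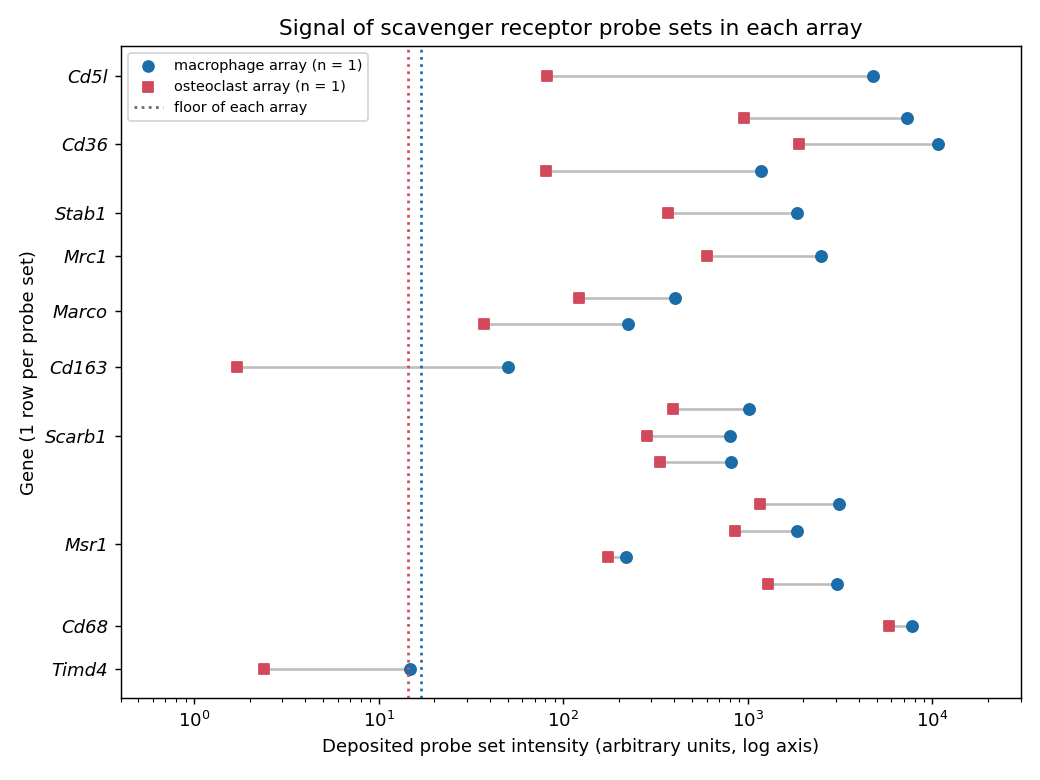
Deposited intensity (log axis) of each of the 18 probe sets of the scavenger receptor genes in the macrophage array (circles) and the osteoclast array (squares), 1 array each, with the floor of each array as a dotted line. The osteoclast signal is the lower one in every row; Cd5l has the widest gap among genes measured in both arrays (4792 against 81.6) and Cd68 and 1 Msr1 probe set the narrowest.

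Cd5l, also called AIM, is a secreted protein of scavenger receptor cysteine-rich domains that macrophages release and that binds lipids and microbes. Its probe set (1449193_at) gave 4792 in macrophages and 81.6 in osteoclasts. The osteoclast signal was 1.70% of the macrophage signal, still above the floor. Relative to the shift the difference was -5.44, 43.5-fold lower, and as deposited -5.88, or 58.7-fold lower. Of the 13647 measured genes, 2 had a lower difference, Fcrls and Xist. The gap to the next scavenger receptor in order, Cd36, was 3.38 on the log2 scale and exceeded the SD between probe sets.

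Cd36, the class B receptor for oxidised lipoproteins and long-chain fatty acids, was lower in osteoclasts in all 3 of its probe sets. The brightest (1450883_a_at) gave 10752 in macrophages and 1900 in osteoclasts, 1423166_at gave 7254 and 950.4, and 1450884_at gave 1173 and 80.9. Every osteoclast signal was thus lower, by unequal amounts. The differences were -2.07, -2.50 and -3.43 relative to the shift, that is 4.19-fold, 5.65-fold and 10.7-fold lower. Their SD was 0.69 (n = 3 probe sets), wider than the 0.49 of genes in general, while all 3 lay on the same side of the shift. For the brightest probe set, 114 genes had a lower difference.

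Scarb1 encodes SR-BI, the other class B receptor, which takes up cholesterol esters from high-density lipoprotein. It differed by less than Cd36. Signals were 1016 and 391.6 for 1416050_a_at, 797.6 and 284.6 for 1437378_x_at, and 812.3 and 332.6 for 1455820_x_at, in macrophages and osteoclasts. The 3 differences lay close together, between -1.05 and -0.86, with an SD of 0.099. The brightest was at -0.94 (1.92-fold lower), just within 2-fold of the shift, and at -1.38 as deposited. Identifiers ending in _x_at mark probe sets in which some probes may also bind other transcripts, and for Scarb1 they lay on either side of the third.

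Msr1, which encodes SR-A1, the founding class A receptor for acetylated lipoprotein, showed a modest difference in 3 of its 4 probe sets. The brightest (1448061_at) gave 3041 in macrophages and 1289 in osteoclasts, 1422062_at gave 3136 and 1171, and 1425434_a_at gave 1843 and 847.2. These were lower by between 0.69 and 0.99 on the log2 scale, all within 2-fold of the shift. The fourth, 1425435_at, gave 219 and 175 and lay on the other side of the shift at 0.11, or -0.32 as deposited. Msr1 is known to be spliced into several forms, and the form that each probe set reads is not known here. The 4 differences spanned 1.10, with an SD of 0.49.

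Marco, the other class A receptor, binds bacteria and inhaled particles and marks subsets of resident macrophages. Its probe set 1449498_at read 405 in macrophages and 122 in osteoclasts, and 1458297_s_at read 224 and 37.0. Both were at least 2-fold lower in osteoclasts, at -1.30 and -2.17 (2.46-fold and 4.49-fold). The 2 probe sets differed from each other by 0.87, more than the SD between probe sets.

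Mrc1 and Stab1, 2 endocytic receptors that are also known from sinusoidal endothelium and from alternatively activated macrophages, were lower by similar amounts. Mrc1, the mannose receptor CD206, which takes up glycoproteins and microbial sugars, gave 2504 in macrophages and 603 in osteoclasts. Its difference was -1.62, 3.08-fold lower. Stab1, which encodes stabilin-1, a receptor for acetylated lipoprotein and matrix fragments, gave 1840 and 371. Its difference was -1.88, 3.67-fold lower. Each has 1 probe set, so no second reading was at hand, and the gap between both genes, 0.26, was within the SD between probe sets.

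Cd163, the haptoglobin-haemoglobin receptor, and Timd4, a receptor for phosphatidylserine on dying cells, were dim. Cd163 gave 50.1 in macrophages and 1.71 in osteoclasts, below the floor there. Raised to the floor, its difference was a bound of -1.37. A more cautious background level was taken from 80 probe sets of olfactory and vomeronasal receptors, genes that these cells are not known to use, as their 95th percentile, 25.7 in osteoclasts. With the osteoclast signal at this level, Cd163 was at least 1.44-fold lower, or 1.95-fold as deposited. It therefore passed 2-fold with the osteoclast signal at the floor but not at this higher level. It was counted as measured through the macrophage array alone. Timd4 gave 14.9 and 2.40, below the floor in both arrays, and no difference is given for it.

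Cd68, macrosialin, is a heavily glycosylated protein of late endosomes and lysosomes and binds oxidised lipoprotein. It was the one member at the shift. It gave 7724 in macrophages and 5850 in osteoclasts. Its difference was 0.032, and -0.40 as deposited, a 1.32-fold lower signal. Of all measured genes, 53.6% had a difference as low or lower, so Cd68 stood near the middle of the arrays while the gene next to it in order, Msr1, was 0.84 lower.

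**Figure D2:**
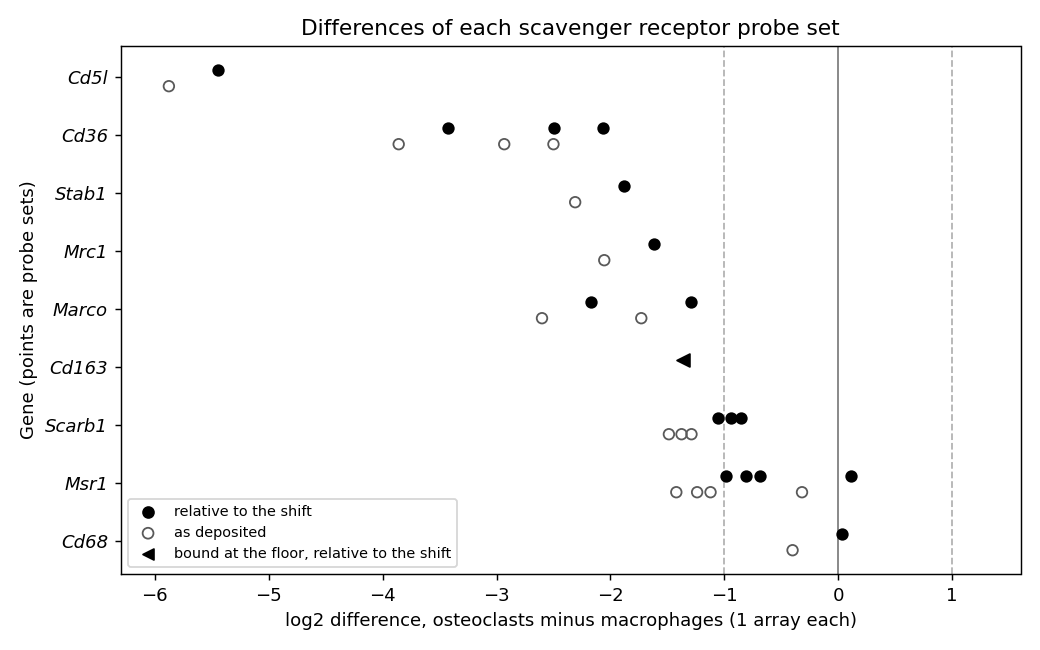
Log2 difference, osteoclasts minus macrophages (1 array each), of every probe set of the 9 genes measured in at least 1 array. Filled points are relative to the shift and open points as deposited, the triangle is the Cd163 bound at the floor, and dashed lines mark 2-fold. Cd5l stands at -5.44, the Cd36 points spread from -3.43 to -2.07 and the Scarb1 points lie within 0.20 of each other.

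In order of difference, the genes measured in both arrays ran Cd5l, Cd36, Stab1, Mrc1, Marco, Scarb1, Msr1 and Cd68. Only the first and the last gap in this order, at 3.38 and 0.84, were wider than the SD between probe sets. That SD is for 1 reading and not for a gap between 2, and it holds no variation between cultures. The last gap also depends on the probe set, since 1 of Msr1 (0.11) lay above Cd68 (0.032). The other 5 gaps ran from 0.14 to 0.35, so neighbours between Cd36 and Msr1 have no settled order. Cd36 and Msr1, the ends of that stretch, lay at -2.07 and -0.81. Of the class B genes, Cd36 was lower than Scarb1, with no overlap between the 3 Cd36 probe sets (-3.43 to -2.07) and the 3 Scarb1 probe sets (-1.05 to -0.86). The class A genes did not overlap either, Marco lying between -2.17 and -1.30 and Msr1 between -0.99 and 0.11. Their nearest values, -1.30 and -0.99, were closer together than the SD between probe sets. How often the probe sets of other gene pairs fail to overlap was not counted, and probe sets of 1 array are not replicates. Over all probe sets of the 10 genes, 17 of 18 were measured in at least 1 array. Of these, 15 lay below the shift, 2 above it (Cd68 and 1 of Msr1), and 10 were at least 2-fold lower, where 7.48% of the 25229 measured probe sets of all genes were. One of these was the Cd163 probe set, which counted as measured through the macrophage array alone. Among the 16 probe sets measured in both arrays, 9 were at least 2-fold lower.

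**Figure D3:**
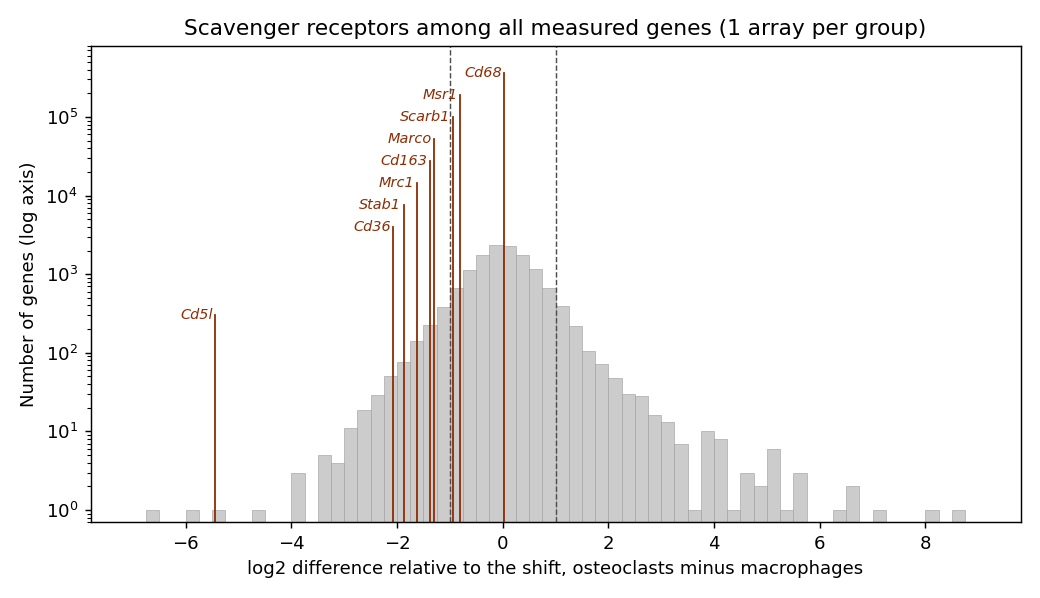
Number of genes (log axis) by log2 difference relative to the shift, over the 13647 genes measured in at least 1 array, with the 9 measured scavenger receptor genes as labelled lines whose heights only separate the names. Dashed lines mark 2-fold. Cd5l lies in the far lower tail at -5.44, Cd36, Stab1, Mrc1, Marco and the Cd163 bound lie left of the 2-fold line, and Cd68 lies at 0.032.

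Several members are known from other cells that could share such cultures, and those cells' markers were read beside them. Of 10 endothelial markers 5 were measured and the 10 summed to 208 and 169. Pecam1 was below the floor in both arrays (16.6 and 1.89), and Cdh5 was above it in osteoclasts only (10.8 and 26.9, a bound of 1.09). Kdr (67.6 and 56.9), Stab2 (32.0 and 26.4) and Robo4 (23.6 and 21.3) were measured in both. Robo4 lay below the receptor level of each array (28.2 and 25.7). Adipocytes also use Cd36. Of their 6 markers with a probe set, 2 were measured, both in the osteoclast array only, and Adipoq was below the floor in both (4.39 and 13.4). Platelets carry CD36 as well. Of 6 megakaryocyte and platelet markers, Pf4 was lower in osteoclasts (8488 against 1609, -1.97) and Vwf was above the floor in osteoclasts only, while Itga2b, the platelet integrin chain, gave 74.6 and 79.8. Stromal and osteoblast markers, 11 of 12 measured, summed to 13156 and 7718. Of these, 1 was at least 2-fold lower (6.99% of all genes) and 2 higher (7.11%), and 3 (17.5%) and 1 (3.0%) as deposited. Among the 10 measured in both arrays, 1 was lower and 1 higher, and 3 and 0 as deposited. The part of these cells in the results was not tested.

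Genes around the scavenger receptors were read in 6 lists, whose counts stand beside the background at 2-fold, where 6.99% of all genes were lower and 7.11% higher, and 17.5% and 3.0% as deposited. Of 17 measured genes among 24 other scavenger receptors, 4 were at least 2-fold lower (6.99% of all genes) and 2 higher (7.11%), and 7 and 2 as deposited, with a median of -0.46 against 0.00 for all genes. Both higher genes were above the floor in osteoclasts alone, and of the 14 measured in both arrays 4 were lower and 0 higher. Fcrls, an Fc receptor-like molecule with a scavenger receptor domain, gave 2305 and 16.6, at least 66.4-fold lower with the osteoclast signal at the receptor level. Colec12, a collectin related to SR-A, gave 362 and 56.3 (-2.25), and Scarb2, the lysosomal class B relative LIMP-2, gave 1610 and 363 (-1.72), with its other probe set at -0.98. Ssc5d and Cd5, 2 genes of the cysteine-rich domain family, were above the floor in osteoclasts only, at 84.9 and 44.9, at least 4.06-fold and 2.15-fold higher. Cd5 also marks lymphocytes. Of 7 B lymphocyte markers with a probe set 4 were measured, among them Cd22 (112 and 37.8) and Cd79b (64.7 and 16.4), both lower in osteoclasts, and of 8 T and NK lymphocyte markers 1 was, Cd8a (48.7 and 23.2). Their summed signals were 249 and 104 for B lymphocytes and 92.2 and 63.6 for T and NK lymphocytes.

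Genes that recognise apoptotic cells and bridge them to the phagocyte were read next. Of 24 measured, 9 were at least 2-fold lower (6.99% of all genes) and 3 higher (7.11%), and 12 (17.5%) and 1 (3.0%) as deposited, and the median was -0.57. Gas6, the bridging ligand of the MERTK and AXL receptors, gave 3000 and 354 (-2.65), but its other probe set gave -0.47. The complement genes C1qc (7557 and 1281, -2.13) and C1qa (6897 and 1227, -2.06), whose product opsonises dying cells, were lower. Itgb3, the vitronectin receptor chain that osteoclasts use to attach to bone, was higher (46.1 and 590.0, 4.11). Cd300lf (70.6 and 114, 1.12) and Adgrb1, the phosphatidylserine receptor BAI1 (18.2 and 28.5, 1.08), were higher on both scales and passed 2-fold relative to the shift only, and Adgrb1 was in the range of background, at least 1.36-fold higher.

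Lipid-handling genes act downstream of uptake. Of 20 measured, 8 were at least 2-fold lower (6.99% of all genes) and 2 higher (7.11%), and 9 (17.5%) and 1 (3.0%) as deposited, with a median of -0.21. Nceh1, a cholesterol ester hydrolase (2599 and 588, -1.71), Plin2, which coats lipid droplets (7466 and 1842, -1.59), and Mylip, which degrades the LDL receptor (642 and 171, -1.47), were lower. Abcg1, a cholesterol efflux pump, was higher (200.3 and 423, 1.51), and Scd1, a fatty acid desaturase, was higher on both scales but passed 2-fold relative to the shift only (69.3 and 120.3, 1.23, and 0.80 as deposited). The other Scd1 probe set was at 0.54, within 2-fold of the shift.

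Among genes of haemoglobin and heme handling, the route that CD163 feeds, 4 of 15 measured were at least 2-fold lower (6.99% of all genes) and 2 higher (7.11%), and 7 (17.5%) and 1 (3.0%) as deposited, with a median of -0.16. Of the 12 measured in both arrays, 4 were lower and 1 higher, and 7 and 0 as deposited. The lower genes were led by Slc40a1, the iron exporter ferroportin (3738 and 425, -2.70), Hmox1, the heme-degrading oxygenase (5984 and 812, -2.45), and Slc11a1, a phagosomal metal transporter (4104 and 958, -1.67). Hp, haptoglobin, which is also a granulocyte product, was above the floor in osteoclasts only, at 52.0, at least 2.49-fold higher. Slc11a2, an iron importer, was higher on both scales but passed 2-fold relative to the shift only (187 and 304, 1.14, and 0.70 as deposited). Its 4 measured probe sets lay between 0.59 and 1.15.

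Presumed regulators of scavenger receptor genes were listed too, and whether each acts on these genes was not checked. Of 23 measured, 6 were at least 2-fold lower (6.99% of all genes) and 2 higher (7.11%), and 9 (17.5%) and 1 (3.0%) as deposited. The median was -0.45. The higher share is near that of all genes. Bcl6, a repressor (828 and 147, -2.07), Maf, a factor of resident macrophages (4698 and 878, -1.99), and Irf8, a myeloid interferon regulatory factor (934 and 177, -1.97), were lower. Maf had 6 measured probe sets between -2.47 and -0.14. Spic, a factor of red pulp macrophages that handle heme, was higher (41.1 and 111, 1.87), and Klf4 was higher on both scales but passed 2-fold relative to the shift only (192 and 289, 1.03, and 0.59 as deposited), with its other probe set at -0.20. Pparg, the nuclear receptor best known for driving Cd36, gave 244 and 80.6 (-1.17), and was named after its value had been seen. Of the 23, 15 lay below the shift and 8 above it. The latter included Rxrb (283 and 399, 0.93), Spi1 (1557 and 1917, 0.73) and Nr1h3 (104 and 121, 0.65), named in the same way. The part of any of these factors in the results was not tested.

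Partners through which CD36 and SR-A signal included kinases, Toll-like receptors and integrins. Of 20 measured, 4 were at least 2-fold lower (6.99% of all genes) and 1 higher (7.11%), and 7 (17.5%) and 1 (3.0%) as deposited, with a median of -0.22. The higher share is not above that of all genes on the shift scale. Tlr6, which pairs with CD36 in sensing oxidised lipoprotein (108 and 27.8, -1.53), the tetraspanin gene Cd81 (2826 and 826, -1.34) and Vav1, an exchange factor (509 and 156, -1.27), were lower. The other Vav1 probe set was at -0.97. Src, the kinase needed for the osteoclast's ruffled border, was higher (78.3 and 341, 2.55), as was its other probe set (2.44). The 6 lists share Lrp1 between 2 of them and were not compared by a test. Together they held 118 measured genes, 35 at least 2-fold lower and 12 higher, and 50 and 7 as deposited. Among those measured in both arrays, 109 genes, 35 were lower and 9 higher, with a median of -0.45. The medians on the same basis were -1.46 for the 8 scavenger receptors and -1.20 for the 8 macrophage markers, all 8 of which lay below the shift.

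**Figure D4:**
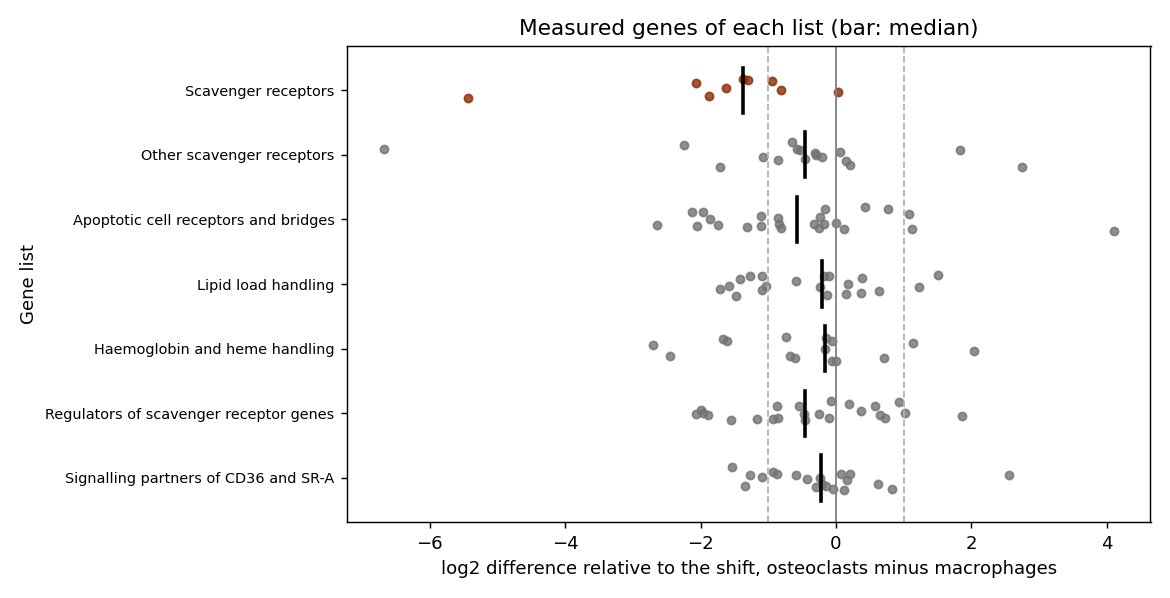
Log2 difference relative to the shift, osteoclasts minus macrophages, of each measured gene (points, spread vertically for legibility) in the 10 scavenger receptors and 6 related lists, with the median as a bar and dashed lines at 2-fold. Genes measured in 1 array only are bounds at the floor. All scavenger receptor points but Cd68 lie left of 0, while each related list has points on both sides, those of the other scavenger receptors past 2-fold on the right being bounds.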

How the data were processed

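The table as the authors deposited it gives intensities on a linear scale for 45101 probe sets and 2 arrays. Biotin labelling started from 1 µg of total RNA with the one-cycle method, per the labels. For probe summarisation, background correction, scaling and detection calls, the method is not stated in the sources used here. Controls (64 probe sets) and probe sets with several symbols (932) or none (9160) were left out, and 34945 with 1 symbol of the platform annotation, which can be old, were kept. Median intensities were 27.0 in macrophages and 22.8 in osteoclasts, and precision is limited by there being 1 array per group.

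Log2 differences were taken relative to the median difference of probe sets above the floor in both arrays. A signal below the floor was raised to it, and such a bound was not allowed to cross 0. Genes were counted at 2-fold, a difference of 1 on the log2 scale. Only the computation of the differences, at the floor used here and under several scalings, was tested on simulated arrays with known changes. The counts, the motif search and the other floors and probe set choices were not tested in this way. Beside the scavenger receptors, marker genes and sex-linked genes are named, and up to 3 genes in each direction from each list. The list genes named have the largest difference of at least 2-fold and lie above the receptor level in the brighter array. Genes named after their values were seen are marked so. The members and lists were chosen with earlier results of these data known. The alternatives tried were other scalings (none, median, trimmed mean, quantile, lowess), floors, a pseudocount of 16, other choices of probe set and other folds. Python 3.11.15, pandas 2.3.3 and statsmodels 0.14.6 were used.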

Additional observations from a re-analysis of the deposited data

How the results depend on the processing

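No paired analysis was possible because each group has 1 array. No result changed direction past 2-fold under the alternatives run. The count of scavenger receptors at least 2-fold lower, Cd163 included, was 6 and ran from 5 (floor at the receptor level) to 8 (deposited intensities, or calls at 1.5-fold), and was 2 at 4-fold. Cd36, Marco, Mrc1, Stab1 and Cd5l stayed at least 2-fold lower under all 10 settings of scaling, floor, pseudocount and probe set; Scarb1 passed 2-fold under 2 of them and Msr1 under 1. Cd68 moved from 0.032 to -0.40 with the deposited scale. The Cd163 difference depended on the floor, from -0.53 at the receptor level to -4.44 with none. Genes of the related lists at least 2-fold lower numbered 35 (50 as deposited), and 8 at 4-fold; those higher numbered 12, and 7 as deposited. Over all genes, 954 were 2-fold lower and 970 higher; these counts were 2390 and 409 as deposited, 1567 and 1484 with no floor, 2302 and 2343 at 1.5-fold, and 126 and 183 at 4-fold. The lowess scaling was chosen after seeing the data. Signals near the floor, those of Cd163 and Timd4 among the members, limit what can be read.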

Other observations

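Probe sets of some genes around the scavenger receptors spanned a range wider than the SD between probe sets. A range often exceeds an SD, so such a span is not unusual in itself. These genes were chosen after their values were seen. Siglec1, the sialoadhesin gene of resident macrophages, had 3 measured probe sets between -1.61 and 0.28 relative to the shift, and the brightest gave 66.7 in macrophages and 23.5 in osteoclasts. Lipa, the lysosomal acid lipase gene, had 3 between -2.15 and -1.41, all lower in osteoclasts. Thbs1, which encodes the CD36 ligand thrombospondin-1, gave 3390 and 1163 in its brightest probe set (-1.11) and -0.46 in the other. By contrast, the integrin chain gene Itgb5 was lower in all 4 measured probe sets, between -2.25 and -1.96 (2760 against 526 in the brightest).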
